A study of Homo sapiens with 6 samples.

Results

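The 10 genes described here encode nucleolin, nucleophosmin and proteins grouped with them here: NCL, NPM1, NPM3, LYAR, DDX21, MYBBP1A, RUVBL1, RUVBL2, GRWD1 and C1QBP. They were chosen by name, with earlier results of these data known, from the 63677 genes of the deposited table. All 10 were among the 15492 genes that passed a filter on low counts. Their read counts were compared between 3 DMSO samples and 3 doxycycline samples of RPMI-8402, an established human line of T-ALL, the acute lymphoblastic leukaemia of T cells. All 6 samples came from cells with stable Cas9 and with guide RNAs against MYC that doxycycline induces, and all 6 carry the genotype label MYC_KO, the DMSO samples included. Both groups were taken at 72 hours, after the solvent DMSO or after doxycycline, which switches the guides on. No sample is labelled as having doxycycline but no guides. The labels give no doxycycline dose and do not say whether the line was 1 clone or a pool. They also do not call the replicates separate cultures, so the p-values speak only of the spread among these 6 samples, which may be technical.

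The nucleolus is where ribosomal RNA is transcribed and ribosomal subunits are assembled. Nucleolin, an abundant RNA-binding protein, acts on ribosomal RNA transcription and early processing, and nucleophosmin, a histone chaperone, fills the outer layer of the nucleolus where late assembly takes place. RUVBL1 and RUVBL2 are AAA+ ATPases that form a mixed ring, which with partner proteins builds small nucleolar particles and also sits in chromatin remodelling complexes. Several of these genes are long known as targets of MYC, a growth-promoting transcription factor on which many T cell leukaemias depend.

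Total counts ran from 23121255 to 26214598 per sample. Levels are given as CPM (counts scaled to a common library total) after TMM scaling, which corrects for library composition, and differences as log2 fold changes of doxycycline over DMSO with their standard error (SE). A gene is said to have fallen or risen where edgeR's quasi-likelihood test gave a Benjamini-Hochberg adjusted p under 0.05 over all tested genes. MYC (ENSG00000136997) itself was not lower: its mean was 413 ± 8.01 CPM with DMSO against 440.1 ± 16.0 CPM with doxycycline (n = 3 each, SD; log2 fold change 0.09, edgeR adjusted p = 0.160). It passed, as higher, with upper-quartile scaling (0.14, edgeR adjusted p = 0.0357) and by library size alone (0.14, edgeR adjusted p = 0.0281). A gene-level count still includes transcripts that carry a small insertion or deletion at a cut site, so it tests the labels only in part. Of 12 T lineage markers all were detected, with 1 lower and 3 higher and summed levels, per total count, of 5352 to 5527 CPM in DMSO and 5635 to 5841 CPM in doxycycline. PTCRA and RAG1 reached at most 2.14 and 2.24 CPM. Markers of other cell types were low, apart from COL1A1. Summed B cell markers were at 11.2 to 12.8 CPM in DMSO and 16.3 to 17.4 CPM in doxycycline, with 4 of 5 tested, CD79A among those higher and MS4A1 at 0. Summed myeloid markers were at 1.04 to 1.26 CPM in DMSO and 2.21 to 2.25 CPM in doxycycline, with 1 of 6 tested, MPO, higher and CEBPA at 0. No erythroid marker had more than 1 count in any library, and HBA2, HBB and HBG1 were among those at 0. Stromal and epithelial markers summed to 39.1 to 40.3 CPM in DMSO and 48.9 to 53.8 CPM in doxycycline, nearly all from COL1A1, which was higher, with COL1A2, COL3A1 and EPCAM at 0. The part of these cells or transcripts in the results was not tested, and in bulk RNA fewer cells of a type and less RNA per cell cannot be told apart.

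The starts of the genes are shown first, because the guides are against MYC, which binds a 6-base motif, CACGTG, known as the E-box. Whether MYC binds at these starts, or has a part in the changes of these genes, was not tested. Windows from 250 bases before to 50 after each annotated start were taken from RefSeq on GRCh38.p14, which gave 15 windows for all 10 genes. The E-box, which reads the same on both strands, was in a window of 3 genes, LYAR, DDX21 and MYBBP1A, or 30% of the genes, against 12.6% of 9658 tested genes with a window. In the 3 stretches of 30 bases below, read 5′ to 3′ along the gene with the motif in capitals, the motif begins 64 and 31 bases before a start in LYAR and DDX21, and at base 28 after it in MYBBP1A.
LYAR, chr4:4290068-4290097, minus strand: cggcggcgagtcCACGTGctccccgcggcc
DDX21, chr10:68956604-68956633, plus strand: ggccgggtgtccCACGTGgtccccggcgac
MYBBP1A, chr17:4555340-4555369, minus strand: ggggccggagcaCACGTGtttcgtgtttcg
LYAR and DDX21 each have 2 annotated starts, and in both the E-box lies only in the window of the downstream start. LYAR and DDX21 fell and MYBBP1A did not pass the test. The other genes that fell, NCL, NPM1, C1QBP, NPM3, RUVBL1 and GRWD1, had no CACGTG in these windows, which says only that these letters are not there. The variant CACGCG, or CGCGTG on the other strand, was in a window of 4 genes, NPM1, DDX21, RUVBL2 and GRWD1, against 22.3% of tested genes with a window.

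The motif CCGGAAG, or CTTCCGG on the other strand, the core of sites bound by ETS transcription factors, was in a window of 3 genes, against 22.0% of tested genes with a window. It begins 60 bases before a start in DDX21 and 24 bases before it in GRWD1. C1QBP holds it on the other strand 2 times, of which the copy 18 bases before the start is shown. The capitals again mark the motif in 30 bases.
DDX21, chr10:68956099-68956128, plus strand: tcctgcttcccCCGGAAGtgccttgctacg
GRWD1, chr19:48445948-48445977, plus strand: gaaagcgaaacCCGGAAGtgacgctcttac
C1QBP, chr17:5439155-5439184, minus strand: cgcgggaagcgCTTCCGGgcaggggcgggg
All 3 of these genes fell, as did 8 of the 10 genes in all, so this does not link the motif to the falls. In DDX21 this motif and the E-box lie in the windows of different starts. RUVBL1, NCL and NPM3 held none of the 3 motifs in their windows, and all 3 fell too.

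In the doxycycline samples, 8 of the 10 genes fell and 0 rose: LYAR, DDX21, NCL, NPM1, C1QBP, NPM3, RUVBL1 and GRWD1. Of all tested genes 15.5% were called lower, and of the 5234 tested genes at or above the level of NPM3, the lowest of the 10, 27.8% were. The falls were modest, from 25.4% for LYAR to 11.4% for GRWD1. The median log2 fold change of the 10 genes was -0.27, against -0.00 over all tested genes and -0.05 over those 5234 genes. MYBBP1A and RUVBL2 did not pass the test, with changes of -6.92% and -5.25%. At an unadjusted p under 0.05 edgeR had 9 lower and 0 higher, but no share of all genes at that threshold is given. DESeq2 called the same 8 lower and 0 higher. The groups did not overlap for the same 8 genes, all lower, against 21.0% of tested genes with every doxycycline sample below every DMSO sample and 20.7% with every one above. The DESeq2 background was 16.2% lower. Of all genes 13.8% were higher and 29.3% changed in either direction by edgeR. With GC content and transcript length corrected (described below) all 10 fell, against 11.4% of tested genes.

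**Figure D1:**
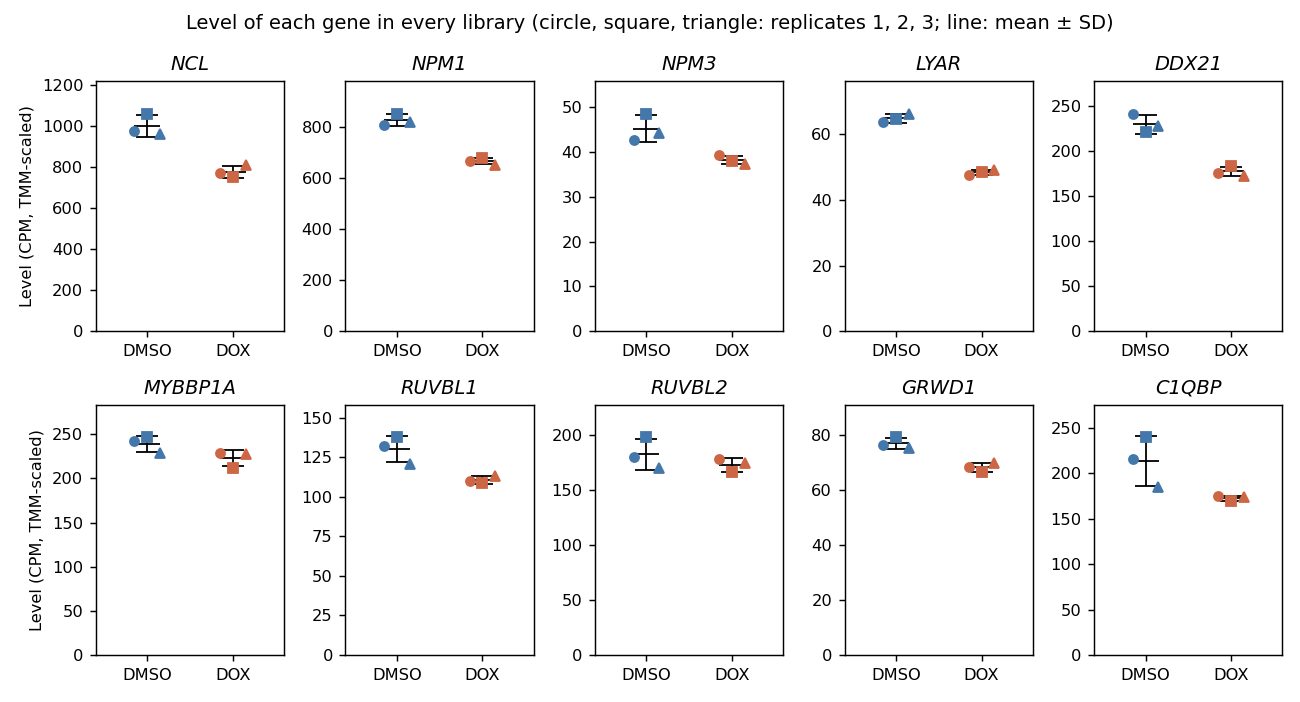
Level of each of the 10 genes (CPM, TMM-scaled, axes from 0) in 3 DMSO samples (blue) and 3 doxycycline samples (orange), with circles, squares and triangles for replicates 1, 2 and 3 and lines for mean ± SD. The groups are separate for 8 genes and overlap for MYBBP1A and RUVBL2.

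NCL (ENSG00000115053), nucleolin, was the most abundant of the 10 by counts and ranked 105 of all tested genes. DMSO replicates 1 to 3 had 975, 1060.3 and 962 CPM, and doxycycline replicates 1 to 3 had 772, 752 and 808 CPM. The lowest DMSO sample was above the highest doxycycline sample by 154 CPM, which is more than the spread within either group. The means were 999 ± 53.3 and 777 ± 28.7 CPM (SD, n = 3 each), and the log2 fold change was -0.36 (SE 0.053, edgeR adjusted p = 1.83e-05). The correction for GC content and length left it at -0.32.

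NPM1 (ENSG00000181163), nucleophosmin, stood at 807, 851 and 818 CPM in the DMSO samples and at 666, 677 and 652 CPM in the doxycycline samples, in replicate order. Every doxycycline sample was below every DMSO sample, by at least 130.1 CPM. The log2 fold change was -0.31 (SE 0.049, edgeR adjusted p = 4.55e-05), from 825 ± 22.9 to 665 ± 12.6 CPM (SD, n = 3 each). Of the falls that the correction made smaller, this one shrank most as a ratio, to a log2 fold change of -0.13 (edgeR adjusted p = 0.0236). The deposited table names 45 NPM1 pseudogenes, of which 18 had any counts, and their counts summed to 1.48% of those of NPM1. NPM1P27, which had most of them, also fell (log2 fold change -0.47, edgeR adjusted p = 0.00152). How reads shared with such copies were counted is not given in the sources used here. Their effect on the NPM1 count is therefore unknown.

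NPM3 (ENSG00000107833), a smaller relative of nucleophosmin in the nucleoplasmin family, was the least abundant of the 10 by counts. Its levels were 42.8, 48.6 and 44.2 CPM in DMSO and 39.2, 37.9 and 37.5 CPM in doxycycline. The groups were separate by 3.55 CPM, a little more than the DMSO SD of 3.02 CPM and less than the distance between the lowest and highest DMSO samples. Its log2 fold change was -0.24 (SE 0.061, edgeR adjusted p = 0.00403), and -0.18 with the correction.

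The ratio of NPM1 to NPM3 within a library does not depend on scaling. It was 18.9, 17.5 and 18.5 in DMSO and 17.0, 17.8 and 17.4 in doxycycline, so the groups overlapped. The log2 ratio differed by -0.07 between groups (two-sided exact permutation p = 0.20, where 3 against 3 samples cannot give less than 0.10). Nucleophosmin and NPM3 were thus not told apart in their change by these samples, which does not show that they changed alike.

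LYAR (ENSG00000145220), a zinc finger protein of the nucleolus that acts in ribosomal RNA processing, had the largest fall of the 10. Its levels were 63.7, 64.6 and 66.3 CPM in DMSO and 47.6, 48.5 and 49.0 CPM in doxycycline. The replicates lay closer together than those of any other of the genes, with coefficients of variation of 1.99% and 1.5%. The log2 fold change was -0.42 (SE 0.054, edgeR adjusted p = 3.49e-06), lower than that of all but 2.25% of tested genes. With the correction it was -0.23.

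DDX21 (ENSG00000165732), a DEAD-box RNA helicase that acts on ribosomal RNA transcription and on small nucleolar RNAs, stood at 241, 220.2 and 227 CPM in DMSO. In doxycycline it stood at 175, 183 and 172 CPM, with a gap of 37.3 CPM between the groups. The log2 fold change was -0.37 (SE 0.050, edgeR adjusted p = 6.21e-06), and -0.27 with the correction.

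MYBBP1A (ENSG00000132382), a nucleolar regulator of RNA polymerase I that shares the B-WICH remodelling complex with DDX21, stood at 243, 247 and 229 CPM in DMSO. In doxycycline it was at 229, 212 and 227 CPM. The groups touched, since doxycycline replicate 1 was above DMSO replicate 3 by 0.212 CPM. The log2 fold change was -0.10 (95% interval -0.21 to -0.00, unadjusted p = 0.0492, edgeR adjusted p = 0.123 over all genes), so it did not pass. The corrected fit had MYBBP1A fall by 0.28 (edgeR adjusted p = 6.85e-05).

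RUVBL1 (ENSG00000175792) stood at 132, 137 and 121 CPM in DMSO and at 109.7, 109 and 113 CPM in doxycycline. The groups were separate, and the DMSO samples spread more widely. Its log2 fold change was -0.24 (SE 0.053, edgeR adjusted p = 0.00151), and -0.26 with the correction. Exons of EEFSEC and SEC61A1 on the opposite strand overlap 12.7% and 5.53% of its exon bases in GENCODE 29, and the strand setting of the counting is not given in the sources used here. Its count is uncertain for that reason. Other members share exon bases too. C1QBP shares 8.07% with RPAIN on the opposite strand and 8.07% with AC004148.2 on the same strand. GRWD1 shares 6.28% with KCNJ14 on the same strand. MYBBP1A shares 2.89% with SPNS2, and RUVBL2 0.76% with LHB, both on the opposite strand.

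RUVBL2 (ENSG00000183207), the other ATPase of the ring, stood at 180.2, 198 and 169.9 CPM in DMSO and at 178, 166 and 175 CPM in doxycycline. The groups overlapped, and the lowest DMSO sample was below 2 of 3 doxycycline samples. The log2 fold change was -0.08 (95% interval -0.19 to 0.03, edgeR adjusted p = 0.299). With the correction RUVBL2 fell by 0.15 (edgeR adjusted p = 0.0134).

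The 2 proteins of the ring assemble together, so their ratio within each library was compared. RUVBL1 counts were 0.733, 0.694 and 0.712 of RUVBL2 counts in DMSO and 0.615, 0.654 and 0.648 in doxycycline. Each doxycycline sample was below each DMSO sample. The log2 ratio went from -0.49 ± 0.040 to -0.65 ± 0.048 (SD, n = 3 each), a difference of -0.16 (two-sided exact permutation p = 0.10, the smallest that 3 against 3 samples can give, so the design cannot reach 0.05). The difference of the 2 corrected fold changes, -0.26 and -0.15, has the same direction. The ratio of counts is not corrected for GC content, which is 51.4% for RUVBL1 and 60.1% for RUVBL2. Set against the median of tested genes in its own bin of GC content (described below), RUVBL1 was lower by 0.27 and RUVBL2 by 0.24. Whether the ratio changed apart from GC content was not tested.

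**Figure D2:**
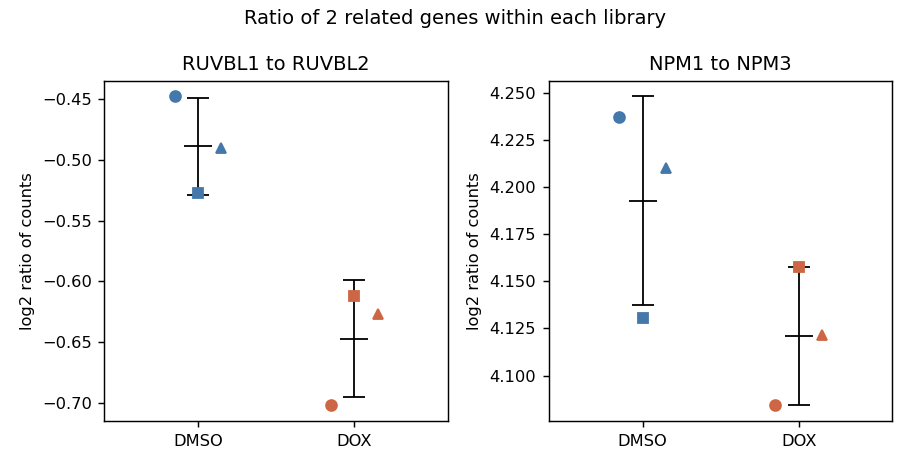
Log2 ratio of counts of RUVBL1 to RUVBL2 (left) and of NPM1 to NPM3 (right) in each library, with circles, squares and triangles for replicates 1, 2 and 3 and lines for mean ± SD; the axes do not start at 0. The groups are separate for RUVBL1 to RUVBL2 and overlap for NPM1 to NPM3.

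GRWD1 (ENSG00000105447), a WD-repeat protein that escorts a large-subunit ribosomal protein and binds histones, stood at 76.4, 79.1 and 75.3 CPM in DMSO and at 68.3, 66.5 and 69.6 CPM in doxycycline. The groups were separate by 5.65 CPM, more than the SD of either. Its log2 fold change was -0.17 (SE 0.052, edgeR adjusted p = 0.0129), and it fell by 0.35 with the correction, then the largest fall of the 10. The call without the correction was lost without doxycycline replicate 2 (-0.16, edgeR adjusted p = 0.0633), with upper-quartile scaling (-0.13, edgeR adjusted p = 0.0722) and under library size alone (-0.13, 0.0606). With these 2 scalings 7 of the 10 genes were called lower, where 10.2% and 10.4% of all genes were. With DESeq2 size factors, without a low-count filter and under a replicate block it was 8 of 10, where 15.3%, 8.34% and 14.2% of genes were. With 1 sample left out it was 7 or 8 of 10, where 11.2% to 14.7% of genes were (11.6%, 14.7% and 14.3% without DMSO replicates 1, 2 and 3, and 11.4%, 13.0% and 11.2% without doxycycline replicates 1, 2 and 3).

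C1QBP (ENSG00000108561), an acidic protein found mainly in the mitochondrial matrix, where it supports mitochondrial translation, varied most between DMSO samples. It stood at 216, 239.5 and 185 CPM in DMSO, a coefficient of variation of 12.9%, and at 175, 169.6 and 173 CPM in doxycycline, where it was 1.5%. DMSO replicate 3 came within 10.2 CPM of the highest doxycycline sample. The log2 fold change was -0.31 (SE 0.063, edgeR adjusted p = 7.22e-04), and -0.19 with the correction. Without DMSO replicate 2 it was -0.22 and without DMSO replicate 3 -0.40, and it stayed called in both.

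The authors' deposited table gave the same 8 genes an adjusted p-value under 0.05, where 15.6% of genes with an adjusted p-value were lower at that threshold. In the authors' deposited table LYAR had a log2 fold change of -0.43 (standard error 0.062, DESeq2 adjusted p = 2.57e-10), and GRWD1 one of -0.18 (standard error 0.058, DESeq2 adjusted p = 0.00886). In the authors' deposited table MYBBP1A had -0.11 (DESeq2 adjusted p = 0.0813) and RUVBL2 -0.09 (DESeq2 adjusted p = 0.289).

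Summed, the 10 genes took 0.287% to 0.305% of the raw counts of each DMSO sample and 0.246% to 0.253% of those of each doxycycline sample, with no scaling applied. In TMM-scaled CPM the sum went from 3006 ± 127 to 2453 ± 28.7 (SD, n = 3 each), a change of -18.4%. NCL and NPM1 made up 60.7% of the sum in DMSO and 69.1% of its fall. The SD was larger in DMSO for all 10 genes and the coefficient of variation for 9 of them, all but MYBBP1A. DMSO replicate 2 was the highest DMSO sample for 8 of the 10, all but LYAR and DDX21. The median log2 fold change of the 10 was -0.21 without DMSO replicate 2.

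Levels can be compared between genes only per length, here as mean CPM per kilobase of merged exons in GENCODE 29. In DMSO the order was NPM1 (317), NCL (248), C1QBP (172), RUVBL2 (86.8), NPM3 (51.5), MYBBP1A (49.7), DDX21 (45.7), RUVBL1 (44.7), LYAR (40.4) and GRWD1 (13.8). The ranges over samples of NPM3 and MYBBP1A, of MYBBP1A and DDX21, and of DDX21 and RUVBL1 overlapped, so those neighbours did not differ beyond their spread. In doxycycline the first 4 and the last 2 places were the same, NPM1 at 255 and GRWD1 at 12.2 CPM per kilobase. There MYBBP1A (46.3) stood above NPM3 (43.6), with overlapping ranges, and RUVBL1 (38.0) above DDX21 (35.3). The level per kilobase depends on the transcript assumed: with the longest transcript in place of merged exons NPM1 would be at 469 and RUVBL1 at 32.0 CPM per kilobase in DMSO.

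The genes that did not pass the test were those richest in GC. The longest transcripts of MYBBP1A and RUVBL2 are 60.9% and 60.1% G and C, while DDX21, NPM1 and LYAR, at 41.1%, 43.3% and 43.4%, are the poorest. Across all tested genes the fold change followed GC content: the median log2 fold change was -0.08 for 3210 genes with 40% to 45% GC, 0.03 for 2485 with 50% to 55%, and 0.16 for 2062 with 60% or more. The share called lower was 25.0%, 9.70% and 3.35% in these bins. Each of the 10 genes was below the median of its own GC bin, by 0.23 (NPM1) to 0.35 (NPM3) on the log2 scale, with MYBBP1A 0.27 and RUVBL2 0.24 below theirs. The distances from those medians were thus closer to each other than the fold changes, which ran from -0.42 to -0.08.

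**Figure D3:**
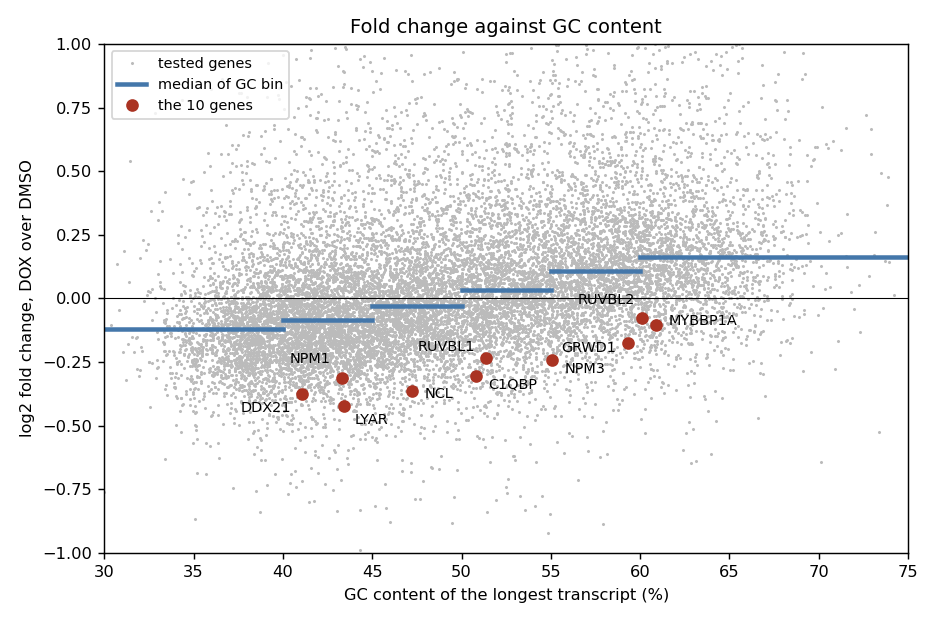
Log2 fold change of doxycycline over DMSO against GC content of the longest transcript (%) for tested genes (grey), with the median of each GC bin (blue lines) and the 10 genes (red); 219 of 15036 genes lie outside the plotted ranges. All 10 genes lie below the median of their bin.

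With the trend of GC content and length removed per library, all 10 genes fell, with log2 fold changes from -0.35 (GRWD1) to -0.13 (NPM1) and a median of -0.24. The order of the genes changed. GRWD1 and NCL (-0.32) came first, then MYBBP1A (-0.28), DDX21 (-0.27), RUVBL1 (-0.26), LYAR (-0.23), C1QBP (-0.19), NPM3 (-0.18), RUVBL2 (-0.15) and NPM1. Such a correction also takes out real changes that run with GC content or length, and whether the trend is technical was not tested. The size of the fall of NPM1, LYAR, C1QBP and GRWD1, and the calls of MYBBP1A and RUVBL2, therefore depend on it.

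**Figure D4:**
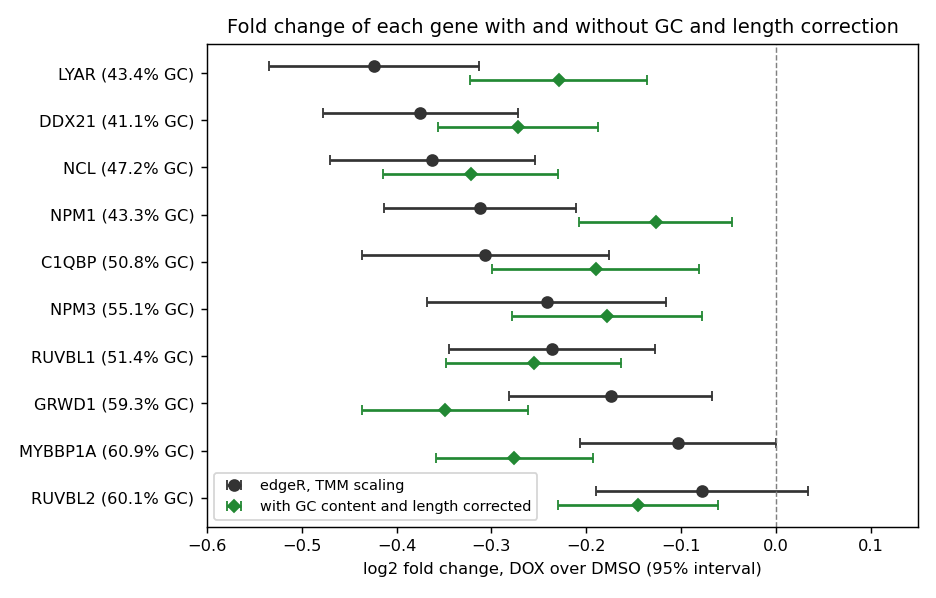
Log2 fold change of doxycycline over DMSO with its 95% interval for the 10 genes, from edgeR with TMM scaling (black circles) and with GC content and length corrected (green diamonds). Black intervals for MYBBP1A and RUVBL2 reach -0.00 and 0.03 at their upper ends, and green intervals all lie below 0.

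Proteins that work with RUVBL1 and RUVBL2 were examined next. The lists here and below were written from general knowledge but with earlier results of these data known, so their counts are a description. Each edgeR count of a list stands against the 15.5% of all tested genes that were called lower. Of genes at or above the level of NPM3 27.8% were, and in the corrected fit 11.4% of tested genes. For DESeq2 the share was 16.2%. Counts at an unadjusted p under 0.05 have no share of all genes beside them, and these shares are not their background. Of 15 genes of the R2TP complex and its prefoldin-like partners, which assemble polymerases, small nucleolar particles and large kinases, 6 fell and 0 rose (8 and 0 at an unadjusted p under 0.05, 6 and 0 by DESeq2), or 40% lower, with a median log2 fold change of -0.14. URI1, a prefoldin-like subunit, went from 80.3 ± 2.46 to 65.9 ± 1.75 CPM and fell by 0.29 (edgeR adjusted p = 2.39e-04). ZNHIT6, an assembly factor of box C/D particles, fell by 0.30 (edgeR adjusted p = 0.00136), and RPAP3, which tethers chaperones to the ring, by 0.20 (edgeR adjusted p = 0.00842; SD, n = 3 each). With the correction URI1 was at -0.16 and ZNHIT6 at -0.20. The RPAP3 call was lost without doxycycline replicate 3 (-0.18, edgeR adjusted p = 0.0563) and with the correction, where RPAP3 was at -0.03. The list's count was 3 without doxycycline replicate 3, and 3 when the pair of libraries that stood together on the second principal component (DMSO 2 and doxycycline 1) was dropped; then 8 of the 10 genes were called lower, where 12.2% of all genes were.

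The ring also belongs to the INO80, SRCAP and TIP60 complexes, which exchange and acetylate histones. Of 29 of their other subunits, 7 fell and 2 rose, with a median log2 fold change of -0.04 (10 and 4 at an unadjusted p under 0.05, 7 and 2 by DESeq2). That is 24.1% lower, between the 2 background shares. MORF4L1 went from 209 ± 8.43 to 173 ± 1.73 CPM and UCHL5, a deubiquitinase, from 69.0 ± 2.72 to 55.9 ± 2.17 CPM, with log2 fold changes of -0.28 and -0.31 (edgeR adjusted p = 1.52e-04 and 2.00e-04; SD, n = 3 each). YEATS4 fell by 0.31 (edgeR adjusted p = 4.10e-04). The 2 that rose, named after their values were seen, were the scaffold proteins EP400 and TRRAP, by 0.23 and 0.24. In the corrected fit 4 fell and 0 rose: INO80, INO80E, SRCAP and UCHL5, of which only UCHL5 (-0.16) was among the 7. Neither MORF4L1 (-0.11, edgeR adjusted p = 0.0663) nor YEATS4 (-0.08, 0.278) passed there.

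Of 4 other AAA ATPases of ribosome assembly 0 were called by edgeR or DESeq2 (2 lower at an unadjusted p under 0.05 by edgeR). SPATA5L1 had a log2 fold change of -0.18 (edgeR adjusted p = 0.0844), NVL of -0.15 (edgeR adjusted p = 0.0895) and MDN1, the largest of them, of 0.07 (edgeR adjusted p = 0.397). With the correction SPATA5L1 passed, at -0.21, and MDN1 was at -0.09.

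DDX21 and MYBBP1A share the B-WICH complex, which opens chromatin at ribosomal RNA genes. Of 6 partners in it 3 fell and 1 rose, and their median was -0.10 (DESeq2 called 3 lower, 0 higher). The 3 are 50% of a list of only 6. DEK, a chromatin protein, went from 435 ± 24.3 to 344 ± 17.9 CPM, a log2 fold change of -0.34 (SD, n = 3 each; edgeR adjusted p = 4.44e-05). SF3B1 and SMARCA5 fell by 0.13 and 0.14 and MYO1C, a nuclear myosin, rose by 0.14 (edgeR adjusted p = 0.0407, 0.0436 and 0.0394). Only the call of DEK among these 4 held with the correction, where DEK was at -0.20 and MYO1C at -0.02. The count was also 1 without DMSO replicate 1, without doxycycline replicate 1 and without doxycycline replicate 2.

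Of 14 other RNA helicases of the nucleolus 5 fell and 0 rose (6 and 0 at an unadjusted p under 0.05, 4 and 0 by DESeq2), or 35.7% lower, with a median of -0.11. DDX18 went from 99.0 ± 3.52 to 78.2 ± 3.55 CPM, a log2 fold change of -0.34, close to that of DDX21 (SD, n = 3 each; edgeR adjusted p = 3.83e-05). DDX10 and DHX33 fell by 0.24 and 0.20 (edgeR adjusted p = 0.00199 and 0.00622). With the correction 8 of 13 fell, against 11.4% of all genes. The count was 3 without DMSO replicate 1 or 2 and without doxycycline replicate 2 or 3.

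Among other histone chaperones, the class to which nucleophosmin belongs, 9 of 13 tested fell and 0 rose (9 and 0 at an unadjusted p under 0.05, 9 and 0 by DESeq2). That is 69.2% lower, with a median of -0.22. NPM2, the remaining member of the nucleophosmin family, did not pass the filter on low counts. ANP32B, an acidic chaperone, went from 1051 ± 105 to 736 ± 92.2 CPM and ANP32E, which removes the histone variant H2A.Z, from 156 ± 7.34 to 114 ± 11.5 CPM (SD, n = 3 each). Their log2 fold changes were -0.51 and -0.46 (edgeR adjusted p = 1.07e-05 and 4.69e-06), and SET fell by 0.30 (edgeR adjusted p = 2.02e-04). With the correction ANP32B was at -0.34, ANP32E at -0.28 and SET at -0.19, and 8 of the list fell and 1, NASP, rose.

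Beside GRWD1, 9 other genes were listed whose proteins escort or load ribosomal proteins or act in assembly or export of the subunits. Of these 6 fell and 0 rose (7 and 0 at an unadjusted p under 0.05, 4 and 0 by DESeq2). That is 66.7% lower, with a median of -0.23. LTV1, of small-subunit export, fell by 0.38 from 51.4 ± 0.428 to 39.6 ± 1.83 CPM (SD, n = 3 each; edgeR adjusted p = 3.37e-05). BRIX1, of the large subunit, and BCCIP, a chaperone of a ribosomal protein, fell by 0.37 and 0.33 (edgeR adjusted p = 5.45e-05 and 8.88e-05). With the correction the 3 fell by 0.18, 0.16 and 0.18.

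Of 16 other proteins of nucleolar assembly 10 fell and 0 rose (11 and 0 at an unadjusted p under 0.05, 11 and 0 by DESeq2). That is 62.5% lower, with a median of -0.23. DKC1, which modifies uridines in ribosomal RNA, went from 156 ± 8.78 to 125 ± 4.02 CPM, a log2 fold change of -0.32 (SD, n = 3 each; edgeR adjusted p = 6.13e-05). NOP58, a core protein of box C/D particles, and NIFK fell by 0.54 and 0.38 (edgeR adjusted p = 1.63e-06 and 9.42e-05). With the correction NOP58 was at -0.35, and NIFK did not pass (-0.15, edgeR adjusted p = 0.0514), whereas 10 of 15 genes did.

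**Figure D5:**
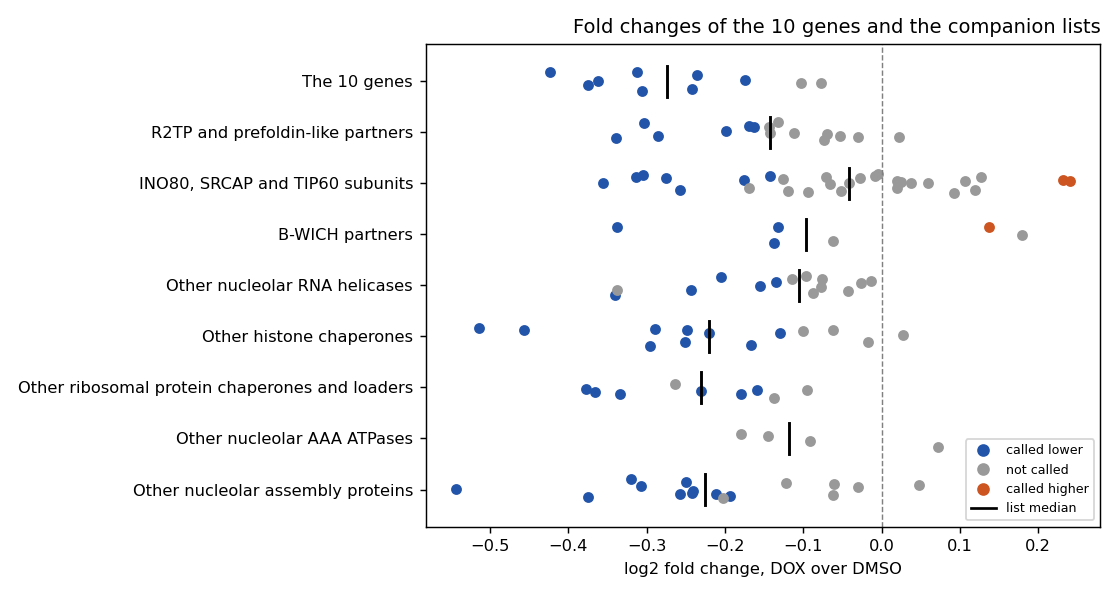
Log2 fold change of doxycycline over DMSO for the 10 genes and the members of 8 companion lists that passed the filter; points are genes, blue called lower, grey not called, orange called higher by edgeR, and black lines are list medians. The median of the 10 genes is -0.27 and those of the lists run from -0.04 to -0.23.

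The genes most like the 10 in pattern were sought among 9435 other genes with a mean log2 CPM of at least 3, by Pearson correlation over the 6 libraries with the mean of the standardised levels of the 10. The highest were PDCD5 (r = 0.999), OCIAD1 (0.999), HNRNPL (0.999), GIMAP5 (0.998) and PNP (0.998). These values rest on the contrast between 2 groups of 3 and on shared library scaling, and they are given as a description. PNP, an enzyme of purine salvage, went from 43.2 ± 3.11 to 32.8 ± 0.857 CPM, and HNRNPL, a splicing regulator, from 398 ± 13.5 to 351 ± 6.60 CPM (SD, n = 3 each). PDCD5 fell by 0.27 (edgeR adjusted p = 5.61e-04) but did not pass with the correction (-0.09, edgeR adjusted p = 0.153). GIMAP5 did not pass the test (log2 fold change -0.09, edgeR adjusted p = 0.155).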

How the data were processed

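The labels describe strand-specific, paired-end DNBSEQ libraries of total RNA. The authors deposited raw read counts per gene, not normalized. Their second deposited file compares the groups by DESeq2 and holds, per gene, the mean signal over samples, the log2 fold change and its error, the test score, and raw and adjusted p-values. STAR 2.5.2a, featureCounts, DESeq2 1.12.4 and hg19 are named, without roles, per the submitters' processing notes, and annotation and strand setting are not given in the sources used here. Genes were joined by identifier, and the 10 genes by the symbol in the authors' deposited table.

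Counts were filtered with filterByExpr at its defaults, scaled with TMM and compared with edgeR 4.0.16 (quasi-likelihood, treatment alone, R 4.3.3), with DESeq2 1.42.0 as an alternative. SE is the size of the log2 fold change over the square root of F. Count totals of 23121255 to 26214598 limit the precision of low genes first, and the 10 genes had 995 to 25663 counts in each library. GC content and length of the longest transcript came from GENCODE 29 (GRCh38) for 97.1% of tested genes, and natural splines of both with 5 degrees of freedom, fitted per library, entered edgeR as an offset. Merged exons and exon overlaps came from the basic set of GENCODE 29. For RUVBL1 the longest transcript, of 4062 bases, exceeds the 2909 merged exon bases. Its GC content and corrected length are thus those of a transcript outside that set. Promoter sequences are RefSeq's on GRCh38.p14, with starts counted as base 1.

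The members and lists were chosen with earlier results of these data known. The text names the 10 genes, MYC, the 3 genes of each list with the smallest p, and the 5 genes of most like pattern; SMARCA5, EP400, TRRAP, NASP, NPM1P27 and markers were named after their values were seen. Replicates of a group differed by more than sampling noise (a chi-square of 2.71 to 7.11 per gene), so no pair was taken for 1 library deposited again; this does not show separate cultures. Other scalings, no filter, DESeq2, a replicate block, the GC and length correction and each sample left out were tried.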

Additional observations from a re-analysis of the deposited data

How the results depend on the processing

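Across 14 alternatives 7 of the 10 genes (NCL, NPM1, NPM3, LYAR, DDX21, RUVBL1 and C1QBP) stayed called lower, 7 to 10 genes were called lower and 0 higher. With GC content and length corrected MYBBP1A (-0.28, edgeR adjusted p = 6.85e-05) and RUVBL2 (-0.15, 0.0134) passed. GRWD1 did not pass under upper-quartile scaling (-0.13), library size alone (-0.13) or without doxycycline replicate 2, and ran from -0.19 to -0.16 with 1 sample left out. The median of the 10 was -0.23 under either scaling and -0.22 when DMSO replicate 2 and doxycycline replicate 1 were dropped together, an alternative chosen after the data were examined because these libraries stood together on the second principal component. The median ran from -0.30 to -0.21 with 1 sample left out. Over all genes 2137 were higher and 2408 lower, against 2871 and 1585 under upper-quartile scaling and 2758 and 1606 under library size alone.

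Counts called lower moved by over 1.5 times, or from 0, in 5 lists. Counts in the remaining lists moved less, from 4 to 6 for ribosomal protein chaperones, 7 to 10 for histone chaperones and 9 to 11 for nucleolar assembly proteins. Of the 5 lists that moved, INO80, SRCAP and TIP60 subunits had 4 with the correction (5 to 9 with 1 sample left out). B-WICH partners had 1 under both scalings, the replicate block or the correction (1 to 3). Nucleolar helicases had 3 under both scalings or with the pair dropped, and 8 with the correction (3 to 6). R2TP partners had 3 with the pair dropped (3 to 7), and AAA ATPases 1 with the correction. With the correction the log2 fold change of MYO1C was -0.017 and that of MDN1 -0.087, both turned from higher to lower, and that of OCIAD1 was 0.10, turned from lower to higher. The causes were not tested.

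Same-numbered samples did not deviate together (correlations -0.06, -0.23 and 0.09), so the numbers were not taken to mark pairs. Between unlike numbers the correlations reached 0.32 (DMSO replicate 2 with doxycycline replicate 1) and 0.24 (DMSO replicate 3 with doxycycline replicate 2). The lowest was -0.28 (DMSO replicate 3 with doxycycline replicate 1). Whether samples of the 2 groups share a batch was not tested. With a replicate block 8 of the 10 genes were called lower and 4206 genes in all, against 4545 without it. The RUVBL1 to RUVBL2 ratio kept its direction with 1 sample left out (-0.18 to -0.13).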
